A study of Arabidopsis thaliana with 30 samples.

Results

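Among 27655 Arabidopsis thaliana genes measured in whole leaves of jazD plants, 64 were raised by coronatine at 1 h and stood near the water control at 24 h. These 64 genes, called members below, were chosen on TPM, a transcript level scaled to gene length and to the total of its library. The first condition was a mean log2(TPM + 1) in coronatine leaves at least 1 above that in mock leaves at 1 h. The second was a difference above -0.5 and below 0.5 at 24 h. Of all genes 2.42% met the first condition and 49.2% the second. The 1 h and 24 h contrasts therefore chose the members, and their values at those times are given as a description with no test. Of the 670 genes that met the 1 h condition, 566 were 0.5 or more above mock at 24 h and 40 were 0.5 or more below it, so that the members made up 9.55% of the genes raised at 1 h.

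Every library came from the jazD genotype in the Col-0 ecotype, a line in which, from general knowledge and not from the labels, most genes of the JAZ repressor family are disrupted. The treated groups were whole leaves of plants sprayed at 26 days of age with 5 µM coronatine in water and harvested at 0, 1, 3, 12 or 24 h. The mock groups were whole leaves of jazD plants of the same age sprayed with water alone and harvested at those times. Each of the 10 groups held 3 libraries. No wild-type leaf was analysed here, so nothing below separates the response of jazD from that of an intact plant. In whole leaves, fewer cells of a type and less RNA per cell cannot be told apart. TPM keeps no record of sequencing depth, so depth is unknown here and no counting interval can be given. No label states that replicates came from separate plants, so the p-values measure the spread between libraries, which may be technical.

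Coronatine is a bacterial toxin that mimics jasmonoyl-isoleucine, the active form of the wound and defence hormone jasmonate. It joins the receptor COI1 to JAZ proteins, which are then degraded, and this frees transcription factors such as MYC2 that bind the G-box of target promoters. Early jasmonate targets include further transcription factors and enzymes of jasmonate synthesis and turnover, and the response is known for feedback that limits it. In leaves the hormone is known for raising defence compounds and, over longer times, for loss of chlorophyll.

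The working name of the set, genes raised at 1 h only transiently, went against the data at 3 h. At 3 h 53 of the 64 members still stood at least 1 log2 unit above mock, 41 had their largest difference at that time, and 4 were within 0.5 of mock. At 12 h 31 were within 0.5 of mock on TPM, and 12 after the rescaling described below. The set is therefore described by its rule, as genes raised at 1 h and near mock at 24 h.

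Promoter sequences are shown first because they are the members' own regulatory DNA, which the rule did not use. All 64 members had a promoter in the RefSeq annotation of TAIR10.1, taken as the 250 bases before and the 50 bases after the start of the gene. Promoters were drawn from the members named for their differences or from a gene list, leaving out those beside a threshold. Of these, 8 held at least 2 of the motifs searched. Those shown are the 5 of them with both a G-box and a W-box, the motifs bound by MYC and WRKY factors. RefSeq gene starts can differ from the gene ends given for single genes below. Letters are printed 5′ to 3′ on the strand of the gene, in lower case with every searched motif in capitals.
ERF2: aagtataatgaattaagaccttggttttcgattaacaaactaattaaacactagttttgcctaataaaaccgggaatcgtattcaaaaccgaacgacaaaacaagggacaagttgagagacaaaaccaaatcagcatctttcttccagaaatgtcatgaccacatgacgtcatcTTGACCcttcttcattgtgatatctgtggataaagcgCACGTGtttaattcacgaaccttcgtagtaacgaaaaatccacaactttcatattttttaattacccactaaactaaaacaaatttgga
BBX30: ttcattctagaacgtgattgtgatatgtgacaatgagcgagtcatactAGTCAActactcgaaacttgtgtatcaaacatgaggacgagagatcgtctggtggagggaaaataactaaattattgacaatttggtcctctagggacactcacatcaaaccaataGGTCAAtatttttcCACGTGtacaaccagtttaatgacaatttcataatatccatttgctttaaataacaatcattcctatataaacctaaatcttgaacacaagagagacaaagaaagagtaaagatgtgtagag
MYB114: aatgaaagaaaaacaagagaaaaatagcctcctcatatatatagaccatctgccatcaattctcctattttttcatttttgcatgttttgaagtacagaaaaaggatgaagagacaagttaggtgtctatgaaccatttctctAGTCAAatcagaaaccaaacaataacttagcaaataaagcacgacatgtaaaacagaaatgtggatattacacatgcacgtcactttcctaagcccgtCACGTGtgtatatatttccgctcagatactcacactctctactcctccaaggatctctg
PUB23: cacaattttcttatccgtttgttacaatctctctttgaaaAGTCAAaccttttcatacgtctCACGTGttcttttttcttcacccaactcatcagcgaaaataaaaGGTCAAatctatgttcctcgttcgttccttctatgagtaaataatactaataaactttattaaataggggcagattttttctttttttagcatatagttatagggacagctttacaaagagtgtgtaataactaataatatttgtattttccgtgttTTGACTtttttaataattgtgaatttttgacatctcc
PRP40C: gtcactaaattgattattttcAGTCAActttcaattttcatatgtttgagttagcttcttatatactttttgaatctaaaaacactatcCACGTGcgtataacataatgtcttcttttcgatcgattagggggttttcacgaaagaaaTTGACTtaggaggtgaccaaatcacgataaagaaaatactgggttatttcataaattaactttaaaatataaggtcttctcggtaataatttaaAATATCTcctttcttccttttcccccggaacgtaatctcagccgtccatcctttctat
ERF2 encodes an ethylene response factor and its window is chr5:19172907-19173206 on the reverse strand. BBX30 encodes a small B-box protein and its window is chr4:8708591-8708890 on the forward strand. MYB114 encodes an R2R3 MYB factor of anthocyanin synthesis and its window is chr1:24757048-24757347 on the forward strand. PUB23 encodes a U-box ubiquitin ligase and its window is chr2:15084510-15084809 on the reverse strand. PRP40C encodes a pre-mRNA-processing protein and its window is chr3:6890738-6891037 on the forward strand. The G-box of ERF2 began 39 bases before the gene start, that of BBX30 72 bases before it and that of MYB114 9 bases before it.

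The motifs searched on both strands were CACGTG (G-box), GCCGCC (GCC-box), TTGACC or TTGACT (W-box), CGCGTT (rapid stress response element), ACCGAC or GCCGAC (dehydration-responsive element, DRE) and AATATCT (the end of the evening element). Motifs may share letters with one another, and each was counted on its own. The G-box was in 15 of 64 member promoters (23.4%), in 16.6% of the promoters of the 566 genes that were raised at 1 h and higher at 24 h, and in 7.7% of all 27443 promoters. The W-box was in 37.5% of member promoters, in 36.0% of those of the 566 genes and in 32.4% of all promoters. The DRE was in 14.1% of member promoters, in 12.0% of those of the 566 genes and in 8.7% of all promoters. The GCC-box was in 4 member promoters (6.2%), in 3.5% of those of the 566 genes and in 2.6% of all promoters. The rapid stress response element was in 3.1% of member promoters and 3.4% of all promoters, and the end of the evening element in 12.5% of member promoters and 11.5% of all promoters. In the 18886 promoters of genes expressed enough to be tested, the G-box share was 9.0%, the W-box share 32.8% and the DRE share 9.8%. The GCC-box was in 2.7% of them, the rapid stress response element in 3.7% and the end of the evening element in 11.8%. These shares describe letters in a window of 300 bases. They are no measure of binding, and their differences were not tested. The promoters of MYB47, ATCSLA15, DDF1 and STY46, which are among the members described below, held none of the motifs.

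**Figure D1:**
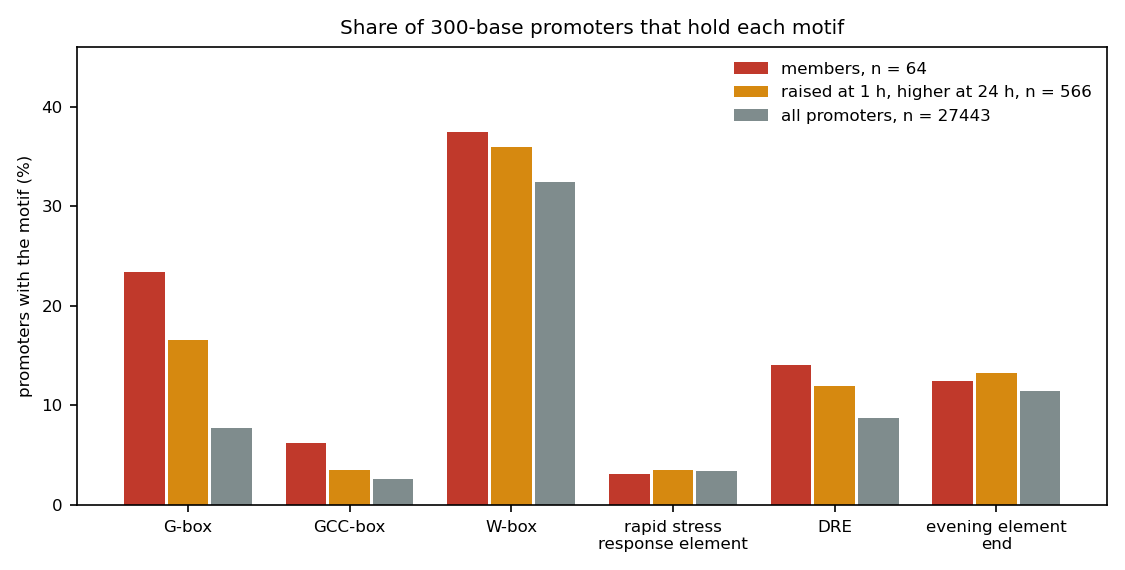
Share of 300-base promoters that held each motif (y axis, percent) for the 64 members, the 566 genes raised at 1 h and higher at 24 h, and all 27443 promoters. The G-box bars stand at 23.4%, 16.6% and 7.7%, and the other motifs lie closer together.

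Replicates of a group were close, with Spearman correlations across genes from 0.986 to 0.995. The median gene among the 19005 tested shifted downwards on the TPM scale, by -0.46 log2 units at 3 h and -0.54 at 12 h, while TMM factors (a rescaling that centres the bulk of genes) put it at -0.01 and 0.02. The words rose and fell are therefore kept for genes that passed limma's test at an adjusted p under 0.05 with the same sign on both scalings, TPM as deposited and TMM-rescaled TPM. The members' median difference at 3 h was 1.70 on TPM and 2.24 on TMM-rescaled TPM. Differences and adjusted p values printed for single genes are those on TPM as deposited, on the log2(TPM + 1) scale, which understates the change of low genes. The summed level of the 4 mesophyll markers was 25900.2 to 30350.0 TPM in coronatine leaves and 34244 to 37849.5 TPM in mock leaves at 3 h, and 5057 to 6607 TPM in coronatine leaves and 21121 to 22257.5 TPM in mock leaves at 12 h. The epidermis sum moved the same way and the guard cell sum the other way. The summed level of the 5 epidermis markers was 818.9 to 918.5 TPM in coronatine leaves and 1357.6 to 1545.0 TPM in mock leaves at 3 h, and 425.8 to 468.2 TPM in coronatine leaves and 1635.9 to 1783.3 TPM in mock leaves at 12 h. The summed level of the 7 guard cell markers was 82.7 to 85.0 TPM in coronatine leaves and 69.1 to 70.6 TPM in mock leaves at 3 h, and 161.0 to 172.4 TPM in coronatine leaves and 78.1 to 83.0 TPM in mock leaves at 12 h. The trichome sums were lower at 3 h without overlap, the xylem sums higher at 12 h, and the phloem companion cell sums overlapped at both times. Single markers did not all follow these sums. Limma called 1 mesophyll marker lower at 3 h and 3 at 12 h, with none higher. It called 3 epidermis markers lower at 3 h and 4 at 12 h, but FDH higher at 12 h. Of the 7 guard cell markers, GC1 was called higher at both times and KAT1 at 12 h. OST1 was called lower at 3 h, and the others were not called. Of the trichome markers, GL2 was called lower and GL3 higher at both times, and TRY lower at 3 h but higher at 12 h. XCP1 alone of the xylem markers was called, higher at both times. Of the phloem companion cell markers, SUC2 was called lower at 3 h and SWEET12 higher at both times. The part of cell composition in the members' values was not tested. The 5 flower markers were at or near 0.

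At 0 h no member was called. Of all genes tested 0.0% were called higher and 0.0% lower, with 0 members called in the authors' deposited table. At an unadjusted limma p under 0.05 there were 11 members (17.2%), 10 of them lower in coronatine leaves, beside 1012 of all genes tested (5.32%). The members' median difference at 0 h was -0.09, and that of all genes tested 0.02.

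At 1 h, the time that chose them, the members' differences ran from 1.00 to 2.97 with a median of 1.35. In 62 of 64 members all 3 coronatine values lay above all 3 mock values, a separation that the 1 h condition itself favours. The other two, AT2G04066 and AT2G11891, each rested on 1 library: AT2G04066 read 8.49, 0 and 0 TPM in coronatine leaves, against 0, 0 and 0 TPM in mock leaves, and AT2G11891 read 0, 15 and 0 TPM in coronatine leaves, against 0, 0 and 0 TPM in mock leaves. Mean levels in coronatine leaves at 1 h ran from 1.33 to 1092 TPM with a median of 31.8 TPM, and 48 members reached 10 TPM. At 24 h the differences ran from -0.47 to 0.50 with a median of 0.03. All 3 coronatine values lay above all 3 mock values in 11 members and below them in 11, and 42 overlapped. Near mock thus refers to the size of the difference and not to overlap of the groups. No share of all genes is given beside these counts. The lower edge of the 1 h condition lay between PRP40C at 1.00 inside it and AT1G32690 at 0.998 outside it. At 24 h AT3G59710 at 0.495 and GLR5 at -0.475 were the last inside, and TRFL8 at 0.512 and AT1G20520 at -0.518 the first outside. When each library of the 1 h and 24 h groups was left out in turn, 46 members met the rule in all 12 repeats.

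At 3 h, a time the rule did not use, 61 of 64 members (95.3%) had risen and none had fallen, against 14.2% of all genes tested called higher and 36.1% called lower by limma at an adjusted p under 0.05. All 3 coronatine values lay above all 3 mock values in 60 members, as in 14.0% of all genes tested, and below them in no member, as in 66.7% of all genes tested. The authors' deposited table called 62 members higher and 0 lower at 3 h, beside 30.7% of its genes higher and 33.5% lower. The members' median difference was 1.70, and 25 members stood at 2 or more. The difference was larger than at 1 h in 41 members (64.1%). Among those 41, the mean level in coronatine leaves was higher at 3 h than at 1 h in 32, and the mean level in mock leaves was lower at 3 h than at 1 h in 32. All 64 members passed the filter on low values, and 63 would have passed it without the coronatine 3 h libraries. Without the coronatine 1 h and 3 h libraries together, DDF1, AT1G19210, AT2G22320, ESE1, AT3G59130, GA2OX8, AT2G04066 and AT5G56880 would not have passed. The 3 members called lower at 12 h, ESE1, AT3G59130 and GA2OX8, were thus tested only because of coronatine groups where they were high.

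**Figure D2:**
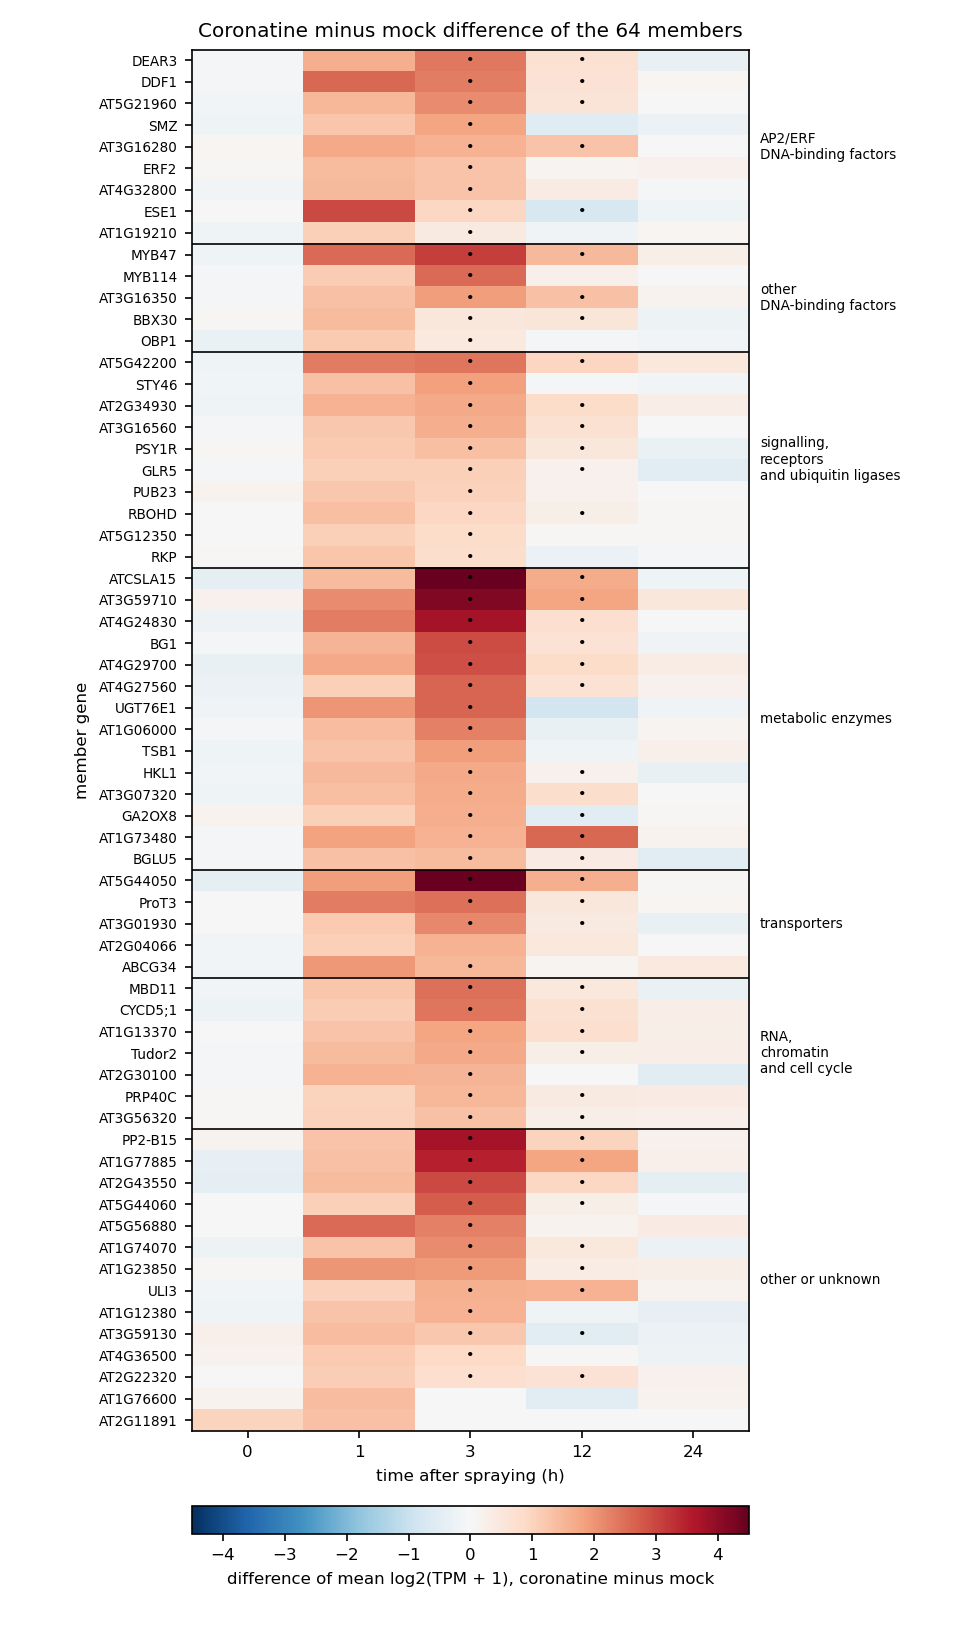
Difference of mean log2(TPM + 1), coronatine minus mock, for each of the 64 members (down the page, grouped by role and ordered by the 3 h difference) at 0, 1, 3, 12 and 24 h (columns), with a dot at 3 and 12 h where limma called the member on both scalings. The 3 h column holds 61 dots and the 12 h column 43, and most metabolic enzymes and transporters are darkest at 3 h.

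The members were grouped into 7 roles after their values had been seen. The AP2/ERF factors, plant transcription factors named for APETALA2 and ethylene response factors, had their largest difference at 1 h in 6 of 9 members and at 3 h in the other 3. All 9 had risen at 3 h, 4 had risen at 12 h, and 1, ESE1, had fallen at 12 h.

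ESE1 (AT3G23220, chr3:8287950-8288388, forward strand, TAIR10 as for all gene coordinates here, which span the whole gene), a factor known to be induced by ethylene and salt, had the largest 1 h difference of the set, 2.97. It read 11.3, 6.47 and 7.7 TPM in coronatine leaves, against 0.23, 0.34 and 0 TPM in mock leaves at 1 h. By 3 h it read 0.94, 0.93 and 1.05 TPM in coronatine leaves, against 0.11, 0 and 0 TPM in mock leaves. The coronatine level was thus already near 1 TPM at 3 h, though its values did not overlap with mock (log2 difference 0.93 ± 0.17 (SE), limma adjusted p = 2.6e-05). At 12 h it read 0.38, 0 and 0 TPM in coronatine leaves, against 1.31, 0.72 and 0.6 TPM in mock leaves, and coronatine leaves lay below mock leaves without overlap (log2 difference -0.73 ± 0.17, limma adjusted p = 0.00035).

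DDF1 (AT1G12610, chr1:4289944-4291017, reverse strand), a DREB-type factor known for dwarfing and late flowering when overexpressed, had the second largest 1 h difference of the set, 2.59. Its level at 1 h was 8.98, 7.23 and 5.51 TPM in coronatine leaves, against 0.06, 1.01 and 0.16 TPM in mock leaves. At 3 h it was 6.37, 5.44 and 4.68 TPM in coronatine leaves, against 0.5, 0.22 and 0.27 TPM in mock leaves (log2 difference 2.29 ± 0.19, limma adjusted p = 3.9e-11). The groups did not overlap at either time, and mock replicate 2 at 1 h was the highest of the mock libraries. At 12 h DDF1 averaged 0.723 ± 0.319 TPM in coronatine leaves and 0.08 ± 0.0693 TPM in mock leaves (SD, n = 3 as for every group), and it was still called higher.

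ERF2 (AT5G47220, chr5:19171862-19172823, reverse strand), whose promoter is shown above, was the most abundant of the 9. It read 189, 169 and 156 TPM in coronatine leaves, against 61.3, 65.2 and 62.3 TPM in mock leaves at 1 h. At 3 h its level was 154, 146 and 139 TPM in coronatine leaves, against 59.1, 59.1 and 57.9 TPM in mock leaves (2.49-fold in mean TPM, limma adjusted p = 2.9e-14). The groups were apart at both times, and at 12 h the means were 59 TPM in coronatine leaves and 54 TPM in mock leaves. That 12 h difference was 0.13 ± 0.07 on TPM, which was not called, and 0.82 log2 units on TMM-rescaled TPM (limma adjusted p = 5.5e-10), and the authors' deposited table gives 0.80. DEAR3 (AT2G23340, chr2:9937998-9938875, forward strand), a DREB protein with an EAR repression motif, instead peaked at 3 h with 41.5, 48 and 41.5 TPM in coronatine leaves, against 7.78, 6.77 and 8.1 TPM in mock leaves (log2 difference 2.38 ± 0.12, limma adjusted p = 5.4e-15). It was still higher at 12 h by 0.68 ± 0.12 log2 units. AT3G16280 (chr3:5518331-5519246, forward strand) was still raised at 12 h, with 15.5, 18.8 and 16.6 TPM in coronatine leaves, against 6.63, 5.99 and 6.75 TPM in mock leaves. The 3 h values were 14.5, 13.2 and 18.6 TPM in coronatine leaves, against 5.84, 4.37 and 3.55 TPM in mock leaves, again without overlap. Its effect at 12 h was not called different from that at 3 h (log2 difference of effects -0.29 ± 0.18, limma adjusted p = 0.17).

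The remaining AP2/ERF members were AT5G21960, AT4G32800, AT1G19210 and SMZ, a repressor of flowering. AT5G21960 averaged 6.82 ± 0.129 TPM in coronatine leaves and 1.81 ± 0.0666 TPM in mock leaves at 1 h, and 6.7 ± 0.485 TPM in coronatine leaves and 0.77 ± 0.07 TPM in mock leaves at 3 h. SMZ averaged 16.5 ± 1.64 TPM in coronatine leaves and 4.06 ± 0.407 TPM in mock leaves at 3 h, and 9.16 ± 1.02 TPM in coronatine leaves and 13.9 ± 0.867 TPM in mock leaves at 12 h, and its 12 h difference of -0.56 on TPM was not called on TMM-rescaled TPM. AT1G19210 was the weakest of the 9 at 3 h (log2 difference 0.39 ± 0.13, limma adjusted p = 0.0069), and without coronatine 3 h replicate 1 its adjusted p was 0.059. AT4G32800 averaged 57 ± 3.29 TPM in coronatine leaves and 20.4 ± 5.66 TPM in mock leaves at 1 h.

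Of the 5 other DNA-binding factors all had risen at 3 h and 3 at 12 h. MYB47 (AT1G18710, chr1:6450594-6453114, forward strand), an R2R3 MYB factor, was the highest of them. It read 269, 265 and 267 TPM in coronatine leaves, against 41.5, 54.7 and 39.1 TPM in mock leaves at 1 h. At 3 h its level was 295, 293 and 315 TPM in coronatine leaves, against 35.8, 32.7 and 34.1 TPM in mock leaves (log2 difference 3.10 ± 0.09, limma adjusted p = 1.5e-19). At 12 h it was 167, 155 and 159 TPM in coronatine leaves, against 57.9, 64.3 and 52.1 TPM in mock leaves (log2 difference 1.46 ± 0.09, limma adjusted p = 2.1e-13). The groups stayed apart at all of these times, and at 24 h coronatine leaves averaged 73.8 ± 4.97 TPM and mock leaves 61.4 ± 6.15 TPM. MYB114 (AT1G66380, chr1:24757413-24758490, forward strand) read 11.6, 9.02 and 11.3 TPM in coronatine leaves, against 0.73, 1.58 and 0.8 TPM in mock leaves at 3 h (log2 difference 2.53 ± 0.17, limma adjusted p = 1.6e-12). Its groups overlapped at 12 h, with 6.49 ± 1.41 TPM in coronatine leaves and 5.32 ± 0.607 TPM in mock leaves, though the difference was called higher at 0.83 log2 units on TMM-rescaled TPM (limma adjusted p = 0.00012).

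BBX30 (AT4G15248, chr4:8708848-8709373, forward strand) stood at a lower level at 3 h and 12 h than at 1 h in both treatments. It read 25.2, 23.9 and 23.9 TPM in coronatine leaves, against 7.77, 9.09 and 8.61 TPM in mock leaves at 1 h. By 3 h the level was 4.53, 4.5 and 3.78 TPM in coronatine leaves, against 3.05, 2.13 and 2.92 TPM in mock leaves (log2 difference 0.52 ± 0.15, limma adjusted p = 0.0032). Coronatine values were above mock values without overlap at 1 h and 3 h. At 12 h the levels were 0.92, 1.08 and 0.67 TPM in coronatine leaves, against 0.87, 0 and 0.12 TPM in mock leaves, and the groups overlapped although the difference was called (limma adjusted p = 0.0015). At 24 h coronatine leaves averaged 13.4 ± 2.16 TPM and mock leaves 15.7 ± 0.89 TPM, near their level at 0 h. AT3G16350, annotated as a homeodomain-like protein, averaged 22.6 ± 0.456 TPM in coronatine leaves and 5.5 ± 0.53 TPM in mock leaves at 3 h, and 15.1 ± 0.994 TPM in coronatine leaves and 5.49 ± 0.49 TPM in mock leaves at 12 h, higher at each time. OBP1, a Dof factor linked to the cell cycle, averaged 10.2 ± 0.845 TPM in coronatine leaves and 3.95 ± 0.279 TPM in mock leaves at 1 h, and 4.3 ± 0.117 TPM in coronatine leaves and 2.95 ± 0.729 TPM in mock leaves at 3 h, when its difference was 0.44 ± 0.13 (limma adjusted p = 0.0033).

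The 10 signalling members comprise receptors, kinases, an oxidase, a phosphatase and ubiquitin ligases. All 10 had risen at 3 h, 6 had risen at 12 h and none had fallen. Their largest difference was at 1 h in 5 and at 3 h in the other 5. RBOHD (AT5G47910, chr5:19397443-19402061, forward strand), the NADPH oxidase of the respiratory burst in defence, read 286, 263 and 263 TPM in coronatine leaves, against 105, 95.1 and 113 TPM in mock leaves at 1 h. Its 3 h level was 208, 216 and 224 TPM in coronatine leaves, against 112, 115 and 111 TPM in mock leaves (log2 difference 0.94 ± 0.05, limma adjusted p = 2.9e-14). Its coronatine level was lower at each later time while mock leaves stayed between 105 and 132 TPM on average. At 12 h RBOHD was still higher, with 160.0 ± 2.03 TPM in coronatine leaves and 132 ± 3.54 TPM in mock leaves.

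PUB23 (AT2G35930, chr2:15082855-15084473, reverse strand), a ubiquitin ligase known to dampen immune signalling, read 61.4, 42.7 and 48.8 TPM in coronatine leaves, against 19.3, 21.4 and 22.2 TPM in mock leaves at 1 h. Its 3 h level was 24.1, 23.8 and 28.4 TPM in coronatine leaves, against 14.3, 9.68 and 11.6 TPM in mock leaves (log2 difference 1.05 ± 0.12, limma adjusted p = 2e-08). Mock leaves at 1 h stood above their own level of 10.7 ± 1.09 TPM at 0 h, and the coronatine level was above both. At 12 h PUB23 averaged 16.9 ± 1.52 TPM in coronatine leaves and 14.8 ± 0.948 TPM in mock leaves, without overlap. The difference at that time was 0.18 ± 0.12 on TPM, which was not called, and 0.84 log2 units on TMM-rescaled TPM (limma adjusted p = 1.1e-06), and the authors' deposited table gives 0.86. STY46 (AT4G38470, chr4:17999432-18003681, forward strand), a kinase known to phosphorylate chloroplast precursor proteins, read 116, 136 and 134 TPM in coronatine leaves, against 36.6, 35.2 and 34.6 TPM in mock leaves at 3 h (log2 difference 1.83 ± 0.06, limma adjusted p = 1.9e-19). By 12 h it averaged 23.6 ± 0.779 TPM in coronatine leaves and 24.5 ± 0.845 TPM in mock leaves, with overlapping groups and levels below those at 0 h in both treatments. The 12 h difference was -0.05 ± 0.06 on TPM and 0.63 log2 units on TMM-rescaled TPM (limma adjusted p = 5.8e-11). PSY1R, a leucine-rich receptor kinase, averaged 33.5 ± 2.11 TPM in coronatine leaves and 14.2 ± 0.612 TPM in mock leaves at 1 h, and 24.7 ± 0.617 TPM in coronatine leaves and 9.06 ± 0.269 TPM in mock leaves at 3 h, and it was still higher at 12 h by 0.52 ± 0.07 log2 units.

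Among signalling members outside the naming rule, chosen after their values were seen, AT5G42200, annotated as a RING and U-box protein, had the largest 1 h difference of the 10, 2.34. It averaged 20.8 ± 0.619 TPM in coronatine leaves and 3.11 ± 0.473 TPM in mock leaves at 3 h, and 10.3 ± 0.639 TPM in coronatine leaves and 4.77 ± 0.412 TPM in mock leaves at 12 h, and its 24 h difference of 0.48 was close to the limit of the rule. RKP, a relative of the ligase KPC1, averaged 51.6 ± 3.97 TPM in coronatine leaves and 20.9 ± 0.759 TPM in mock leaves at 1 h, and 40.7 ± 1.59 TPM in coronatine leaves and 23.1 ± 1.11 TPM in mock leaves at 3 h. GLR5, a glutamate receptor-like channel, averaged 23.6 ± 0.845 TPM in coronatine leaves and 10.7 ± 0.538 TPM in mock leaves at 1 h, and 24.2 ± 0.386 TPM in coronatine leaves and 11.2 ± 0.955 TPM in mock leaves at 3 h. The phosphatase AT3G16560, the leucine-rich repeat protein AT2G34930 and the RCC1-domain protein AT5G12350 had 3 h differences of 1.63, 1.69 and 0.83.

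The 14 metabolic enzymes peaked later. None had its largest difference at 1 h, 13 had it at 3 h and 1 at 12 h. All 14 had risen at 3 h with a median difference of 2.44, and at 12 h 10 had risen and 1, GA2OX8, had fallen. ATCSLA15 (AT4G13410, chr4:7792219-7795824, reverse strand), a cellulose synthase-like glycosyltransferase, had the largest 3 h difference of the set. Its 1 h level was 273, 312 and 285 TPM in coronatine leaves, against 103, 117 and 101 TPM in mock leaves. At 3 h it read 696, 662 and 659.5 TPM in coronatine leaves, against 28.9, 32.1 and 27.9 TPM in mock leaves (log2 difference 4.46 ± 0.13, limma adjusted p = 6e-20). The coronatine level was higher at 3 h than at 1 h, and the mock level was lower at 3 h than at any other time. At 12 h ATCSLA15 read 301, 292 and 311 TPM in coronatine leaves, against 76.9, 115 and 92.8 TPM in mock leaves (log2 difference 1.68 ± 0.13, limma adjusted p = 6.8e-12). At 24 h the groups overlapped, at 99.2 ± 20.7 TPM in coronatine leaves and 114 ± 21.6 TPM in mock leaves.

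AT4G24830 (chr4:12792873-12795974, reverse strand), annotated as an argininosuccinate synthase, an enzyme of arginine synthesis, was named after its values were seen because it had the smallest adjusted p of any member at 3 h. It read 424, 411 and 375 TPM in coronatine leaves, against 79, 89 and 75.7 TPM in mock leaves at 1 h. At 3 h the level was 681, 653 and 625 TPM in coronatine leaves, against 43.3, 53.6 and 46.7 TPM in mock leaves (log2 difference 3.75 ± 0.07, limma adjusted p = 1.3e-22). The groups were far apart at both times. By 12 h it averaged 189 ± 4.55 TPM in coronatine leaves and 112 ± 9.8 TPM in mock leaves, and by 24 h 89.3 ± 6.88 TPM in coronatine leaves and 87.6 ± 4.69 TPM in mock leaves. TSB1 (AT5G54810, chr5:22264594-22266785, reverse strand), a beta subunit of tryptophan synthase, was the most abundant member, with 2396, 2209 and 2420.4 TPM in coronatine leaves, against 643, 605 and 641 TPM in mock leaves at 3 h (log2 difference 1.89 ± 0.10, limma adjusted p = 9.5e-15). At 12 h its groups overlapped, with 491 ± 23.8 TPM in coronatine leaves and 561 ± 90.2 TPM in mock leaves, and the difference was -0.18 ± 0.10 on TPM and 0.52 log2 units on TMM-rescaled TPM (limma adjusted p = 0.00014).

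UGT76E1 (AT5G59580, chr5:24006079-24007689, reverse strand), a glucosyltransferase known to act on hydroxylated jasmonate, read 16, 11.7 and 10.8 TPM in coronatine leaves, against 1.91, 3.57 and 2.05 TPM in mock leaves at 1 h. By 3 h it had 20.9, 20.9 and 18.6 TPM in coronatine leaves, against 3.36, 2.17 and 1.93 TPM in mock leaves (log2 difference 2.62 ± 0.19, limma adjusted p = 3.9e-12). At 12 h it read 1.77, 1.02 and 1.29 TPM in coronatine leaves, against 3.65, 2.92 and 3.26 TPM in mock leaves. Coronatine values thus lay above mock values at 1 h and 3 h and below them at 12 h. The 12 h difference of -0.87 ± 0.19 was called on TPM (limma adjusted p = 0.00017) but not on TMM-rescaled TPM. BG1 (AT3G57270, chr3:21191237-21193189, reverse strand), a beta-glucanase of the cell wall, averaged 3.23 ± 0.512 TPM in coronatine leaves and 0.453 ± 0.0862 TPM in mock leaves at 1 h, and 11.2 ± 0.679 TPM in coronatine leaves and 0.587 ± 0.0862 TPM in mock leaves at 3 h (log2 difference 2.94 ± 0.14, limma adjusted p = 1.3e-15). HKL1, a hexokinase-like protein, averaged 27.6 ± 2.13 TPM in coronatine leaves and 7.78 ± 0.769 TPM in mock leaves at 3 h, and 52.9 ± 3.09 TPM in coronatine leaves and 18.8 ± 2.42 TPM in mock leaves at 1 h. Its level in each treatment was lower at 3 h than at 1 h. Its 12 h call (adjusted p = 0.035 by limma) was lost without coronatine replicate 1 or 3 or mock replicate 2 or 3, at adjusted p values of 0.062, 0.16, 0.056 and 0.099.

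GA2OX8 (AT4G21200, chr4:11302685-11306601, forward strand), an oxidase that inactivates gibberellins, was low throughout and outside the naming rule. It read 0.16, 0.28 and 0.05 TPM in coronatine leaves, against 0.52, 0.93 and 0.57 TPM in mock leaves at 12 h. The 3 h values were 2.91, 3.28 and 5.14 TPM in coronatine leaves, against 0.45, 0.44 and 0.59 TPM in mock leaves. Coronatine values lay below mock values at 12 h and above them at 3 h. The 12 h fall of GA2OX8 (log2 difference -0.52 ± 0.14, limma adjusted p = 0.0017) did not hold when coronatine replicate 1 of that time was left out (adjusted p = 0.061), nor when coronatine replicate 3 (0.15) or mock replicate 2 (0.16) was. Of the other enzymes, AT3G59710, a NAD(P)-binding protein, averaged 33.6 ± 5.39 TPM in coronatine leaves and 0.947 ± 0.261 TPM in mock leaves at 3 h. AT4G29700, annotated as similar to alkaline phosphatases, averaged 169.8 ± 1.96 TPM in coronatine leaves and 22.1 ± 0.725 TPM in mock leaves at 3 h. The glycosyltransferase AT4G27560 averaged 182 ± 1.75 TPM in coronatine leaves and 28.6 ± 1.62 TPM in mock leaves, but the gene AT4G27570 shares 96.0% of the aligned bases and reads may have been split between them. AT1G06000, BGLU5 and AT3G07320 had 3 h differences of 2.27, 1.44 and 1.67.

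**Figure D3:**
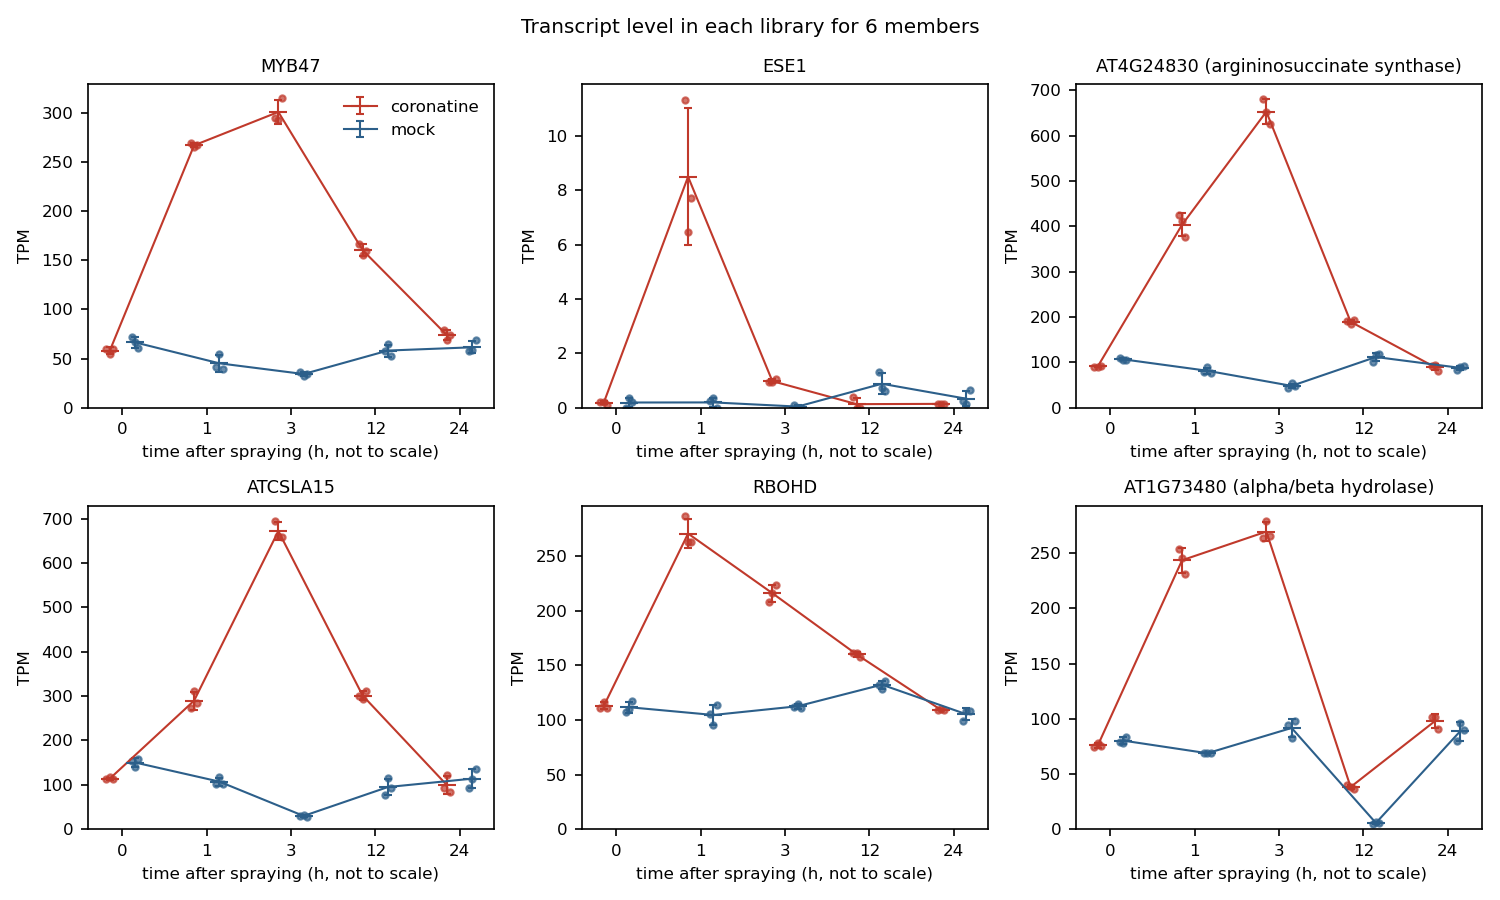
TPM in each library (points), with group means joined by lines and SD bars (n = 3), for MYB47, ESE1, AT4G24830, ATCSLA15, RBOHD and AT1G73480 in coronatine and mock leaves at 0, 1, 3, 12 and 24 h (categories, not to scale). ESE1 and RBOHD are highest at 1 h in coronatine leaves, MYB47, AT4G24830 and ATCSLA15 at 3 h, and AT1G73480 is low at 12 h in both treatments but lower in mock leaves.

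Of the 5 transporters 4 had risen at 3 h and 3 at 12 h. AT5G44050 (chr5:17722484-17726379, forward strand), a MATE efflux protein named after its values were seen, read 135, 126 and 127 TPM in coronatine leaves, against 31, 42.2 and 31.4 TPM in mock leaves at 1 h. At 3 h it read 213, 202 and 195 TPM in coronatine leaves, against 9.31, 8.72 and 6.98 TPM in mock leaves (log2 difference 4.46 ± 0.17, limma adjusted p = 1.3e-17). As for ATCSLA15, the coronatine level was higher and the mock level lower at 3 h than at 1 h. The next gene on the chromosome, AT5G44060 (chr5:17731005-17731905, forward strand), with no gene between them, was also a member. It averaged 119.7 ± 17.1 TPM in coronatine leaves and 17.5 ± 2.99 TPM in mock leaves at 3 h (log2 difference 2.71 ± 0.10, limma adjusted p = 1.4e-17). Its 12 h call did not hold when coronatine replicate 1 (adjusted p = 0.066) or mock replicate 2 (0.054) of that time was left out.

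ProT3 (AT2G36590, chr2:15343006-15345337, reverse strand), a proline transporter, read 17.5, 20.4 and 19.8 TPM in coronatine leaves, against 2.96, 4.05 and 2.39 TPM in mock leaves at 1 h. Its 3 h level was 15.9, 13.9 and 15.3 TPM in coronatine leaves, against 2.63, 1.63 and 1.58 TPM in mock leaves (log2 difference 2.46 ± 0.14, limma adjusted p = 1.9e-14). The groups were apart at both times, and at 12 h the difference was 0.50 ± 0.14. ABCG34 (AT2G36380, chr2:15257583-15263766, forward strand), a pleiotropic drug resistance pump, read 158, 147 and 148 TPM in coronatine leaves, against 37.2, 39.4 and 37.6 TPM in mock leaves at 1 h. Its 3 h level was 99.8, 95.4 and 97.3 TPM in coronatine leaves, against 33.4, 35.4 and 33.6 TPM in mock leaves (log2 difference 1.49 ± 0.09, limma adjusted p = 3.9e-14), and at 12 h its groups overlapped on TPM, with a difference of 0.13 ± 0.09 on TPM and 0.82 log2 units on TMM-rescaled TPM (limma adjusted p = 6.9e-09). AT3G01930, a major facilitator protein, averaged 96.1 ± 5.72 TPM in coronatine leaves and 20.6 ± 1.26 TPM in mock leaves at 3 h. AT2G04066 was listed at 0 in most libraries and read 0, 0 and 45.3 TPM in coronatine leaves, against 0, 0 and 0.73 TPM in mock leaves at 3 h. It was not called, and it shares 99.3% of the aligned bases with the related gene AT2G04080.

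The 7 members of RNA, chromatin and cell cycle roles had all risen at 3 h, and 6 had risen at 12 h. MBD11 (AT3G15790, chr3:5343016-5344700, forward strand), a protein with a methyl-CpG-binding domain, read 141, 133 and 129 TPM in coronatine leaves, against 23.3, 23.1 and 24.1 TPM in mock leaves at 3 h (log2 difference 2.47 ± 0.08, limma adjusted p = 4.2e-19). Its mock level at 3 h was the lowest of the 5 times. CYCD5;1 (AT4G37630, chr4:17679279-17681202, forward strand), a D-type cyclin, read 35.4, 33.2 and 32.8 TPM in coronatine leaves, against 5.22, 6.39 and 5.25 TPM in mock leaves at 3 h (log2 difference 2.40 ± 0.10, limma adjusted p = 2.8e-17). PRP40C (AT3G19840, chr3:6891086-6897356, forward strand) averaged 18.3 ± 0.282 TPM in coronatine leaves and 8.68 ± 0.885 TPM in mock leaves at 1 h, and 27.2 ± 1.51 TPM in coronatine leaves and 9.02 ± 0.316 TPM in mock leaves at 3 h. Tudor2 (AT5G61780, chr5:24821258-24826969, forward strand), a Tudor-SN protein of stress granules, averaged 89 ± 3.52 TPM in coronatine leaves and 32.5 ± 6.2 TPM in mock leaves at 1 h, and 92.3 ± 5.08 TPM in coronatine leaves and 27.7 ± 1.91 TPM in mock leaves at 3 h. In each of these genes the groups did not overlap. AT2G30100, a pentatricopeptide repeat protein, was the member of this role with its largest difference at 1 h, 1.56, against 1.54 at 3 h. The histone gene AT1G13370 averaged 5.39 ± 0.45 TPM in coronatine leaves and 0.907 ± 0.42 TPM in mock leaves at 3 h and shares 91.8% of the aligned bases with AT1G75600. AT3G56320 averaged 8.51 ± 0.693 TPM in coronatine leaves and 2.84 ± 0.301 TPM in mock leaves at 3 h.

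The other 14 members had another or no known role, and 9 of them are annotated as unknown proteins. Of the 14, 12 had risen at 3 h, 8 had risen at 12 h and 1, AT3G59130, had fallen at 12 h. PP2-B15 (AT1G09155, chr1:2949676-2950989, reverse strand), a phloem protein 2 family member, read 1.94, 2.28 and 1.93 TPM in coronatine leaves, against 0.25, 0.3 and 0.2 TPM in mock leaves at 1 h. At 3 h it read 15.3, 14 and 15 TPM in coronatine leaves, against 0.1, 0.35 and 0.1 TPM in mock leaves (log2 difference 3.74 ± 0.13, limma adjusted p = 1.5e-18). It was nearly off in mock leaves at every time, and at 12 h coronatine leaves still averaged 1.52 ± 0.347 TPM, against 0.263 ± 0.0924 TPM in mock leaves. ULI3 (AT5G59920, chr5:24128756-24130888, forward strand), a protein with cysteine and histidine-rich domains, read 54.6, 52.2 and 55.2 TPM in coronatine leaves, against 16.7, 17.7 and 17.8 TPM in mock leaves at 12 h. Its 3 h values were 34.6, 32.2 and 36.6 TPM in coronatine leaves, against 11.2, 11.8 and 9.5 TPM in mock leaves. Its log2 difference was 1.58 ± 0.07 at 12 h and 1.59 ± 0.07 at 3 h, and the change between them was not called (limma adjusted p = 0.97). It shares 90.2% of the aligned bases with AT4G01350.

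Among members of this role outside the naming rule, AT2G43550, annotated as a knottin of the scorpion toxin-like family, was the most abundant. It read 1311, 1299 and 1211 TPM in coronatine leaves, against 176, 176 and 139 TPM in mock leaves at 3 h (log2 difference 2.96 ± 0.13, limma adjusted p = 3e-16). AT1G77885 averaged 32.5 ± 1.28 TPM in coronatine leaves and 1.99 ± 0.355 TPM in mock leaves at 3 h, and 15.1 ± 1.27 TPM in coronatine leaves and 3.75 ± 0.491 TPM in mock leaves at 12 h. AT1G76600 averaged 56 ± 2.53 TPM in coronatine leaves and 20.7 ± 3.07 TPM in mock leaves at 1 h, and 20.6 ± 0.905 TPM in coronatine leaves and 20.4 ± 2.33 TPM in mock leaves at 3 h, with overlapping groups and no call at 3 h (log2 difference 0.02 ± 0.12, limma adjusted p = 0.9). AT3G59130, with a cysteine and histidine-rich domain, averaged 0.103 ± 0.105 TPM in coronatine leaves and 0.57 ± 0.147 TPM in mock leaves at 12 h, and 1.69 ± 0.161 TPM in coronatine leaves and 0.167 ± 0.0231 TPM in mock leaves at 3 h. AT2G22320 was under 3 TPM in all libraries, and its 3 h call was lost without coronatine 3 h replicate 2 (adjusted p = 0.12). Its 12 h call was lost without coronatine replicate 1 (0.075) or 3 (0.087) or mock replicate 2 (adjusted p = 0.11). Reads counted for AT5G56880 may belong to BGAL4, whose transcript it overlaps with full identity, and it is listed at 0 in all mock libraries at 1 h and 3 h. AT1G23850, AT1G74070, AT1G12380 and AT4G36500 had 3 h differences of 1.90, 2.12, 1.57 and 0.88.

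At 12 h, the other time the rule did not use, 40 members (62.5%) had risen, 3 had fallen and 21 were not called. Of all genes tested 24.3% were called higher and 41.7% lower. All 40 members higher at 12 h were also higher at 3 h, as were the 3 that had fallen and 18 of the 21 not called. All 3 coronatine values lay above all 3 mock values in 42 members, as in 24.8% of all genes, and below them in 9 members, as in 62.2% of all genes. The members' median difference at 12 h was 0.40 on TPM and 1.00 on TMM-rescaled TPM. The scaling mattered at this time, with 40 members called higher and 8 lower on TPM alone, and 54 higher and 3 lower on TMM-rescaled TPM alone. The shares of all genes given above are for the joint call. None is given for a single scaling, so these counts show only how the members' calls depend on the scaling. Of the 21 members not called, 14 were called higher on TMM-rescaled TPM alone, so that the missing call of these 14 rests on the TPM scale. Within 0.5 of mock lay 31 members on TPM and 12 on TMM-rescaled TPM. The authors' deposited table called 54 members higher and 4 lower at 12 h, beside 37.3% of its genes higher and 38.4% lower.

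The coronatine effect at 12 h was lower than that at 3 h in 57 members and higher in 1, with 6 not called. Among all genes tested 30.8% had a lower effect at 12 h than at 3 h and 30.0% a higher one. The rule chose genes near mock at 24 h, which favours a decline after 3 h. The count of 57 is therefore partly set by the choice of the members. AT4G24830, for example, had a log2 difference of 0.76 ± 0.07 at 12 h and 3.75 ± 0.07 at 3 h. The change of its effect was -2.98 ± 0.10 (limma adjusted p = 3.4e-17). UGT76E1 had the largest decline of the set, -3.48 ± 0.27 (limma adjusted p = 3e-11). Leaving out 1 library ended the call for AT1G76600 in 8 of 12 repeats, with adjusted p values up to 0.15 (without mock 3 h replicate 2), and that for OBP1 in 5, up to 0.11 (without coronatine 12 h replicate 1).

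AT1G73480 (chr1:27628939-27632806, forward strand), an alpha/beta-hydrolase, was the 1 member with a larger effect at 12 h than at 3 h, and it is named for that reason, after its values were seen. It read 254, 246 and 231 TPM in coronatine leaves, against 69, 68.5 and 68.8 TPM in mock leaves at 1 h. At 3 h it read 264, 279 and 266 TPM in coronatine leaves, against 94.2, 82.7 and 98 TPM in mock leaves. At 12 h it read 40.3, 37.9 and 36.1 TPM in coronatine leaves, against 4.95, 6.1 and 5.61 TPM in mock leaves. The level at 12 h was thus lower than at 3 h in both treatments, and more so in mock leaves. Its log2 difference was 2.58 ± 0.07 at 12 h (limma adjusted p = 6.7e-21) and 1.55 ± 0.07 at 3 h (limma adjusted p = 4.1e-16). The change of the effect was 1.03 ± 0.10 (limma adjusted p = 1.9e-09). At 24 h it averaged 97.8 ± 6.36 TPM in coronatine leaves and 88.7 ± 8.45 TPM in mock leaves.

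**Figure D4:**
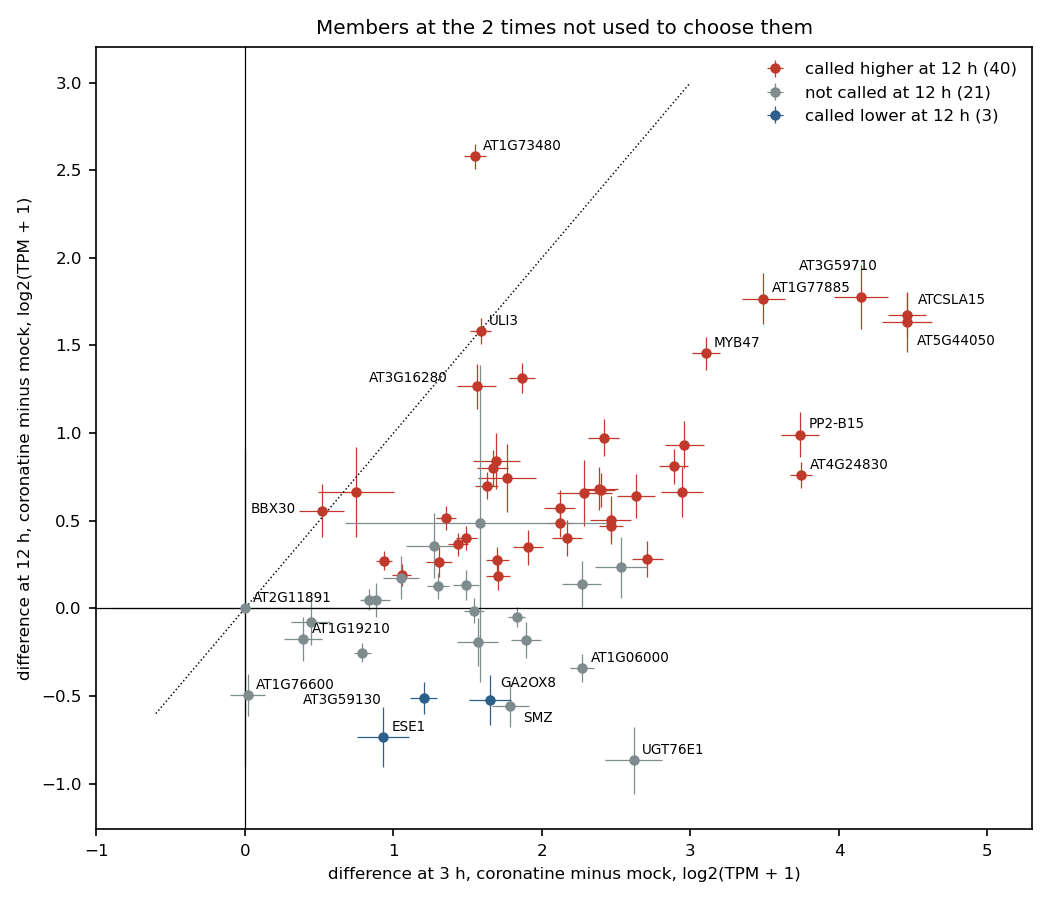
Coronatine minus mock difference in log2(TPM + 1) at 12 h (y axis) against that at 3 h (x axis) for the 64 members, with SE bars and a dotted line of equal differences, coloured by the limma call at 12 h (40 higher, 21 not called, 3 lower). Most members lie to the right of and below the dotted line, and AT1G73480 lies well above it.

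In mock leaves the members were compared with their own level at 0 h. These comparisons share the mock libraries at 3 h, 12 h and 0 h with those above. At 3 h 31 members were lower than at 0 h and 5 were higher, against 20.3% of all genes tested called lower and 23.4% called higher. ATCSLA15 was at 29.6 ± 2.24 TPM in mock leaves at 3 h, and 150.2 ± 9.63 TPM at 0 h (log2 difference -2.30, limma adjusted p = 1.7e-13). AT5G44050 was at 8.34 ± 1.21 TPM at 3 h and 35.6 ± 3.69 TPM at 0 h. The members' median change was -0.24, and that of all genes tested 0.03. All 5 of the non-AP2/ERF DNA-binding factors were lower in mock leaves at 3 h. The 5 members higher at 3 h were AT1G76600, AT3G07320, AT4G36500, ERF2 and TSB1. Calls that did not hold without single mock libraries were those of MYB114 (adjusted p up to 0.12, without 3 h replicate 1), Tudor2 (up to 0.18, without 3 h replicate 3), AT1G76600 (up to 0.14, without 0 h replicate 1) and AT3G59710 (0.065, without 3 h replicate 1).

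At 12 h 14 members were higher than at 0 h in mock leaves and 13 were lower, against 20.7% of all genes tested called higher and 10.1% called lower. AT1G73480 showed the largest decline, with 5.55 ± 0.577 TPM at 12 h and 80.2 ± 2.88 TPM at 0 h (log2 difference -3.63, limma adjusted p = 4.6e-23). BBX30 was at 0.33 ± 0.471 TPM at 12 h and 13.3 ± 0.615 TPM at 0 h (log2 difference -3.48, limma adjusted p = 7.7e-16). AT4G27560 was at 111 ± 2.15 TPM at 12 h and 42.7 ± 3.55 TPM at 0 h. On TPM alone 28 members were called higher and 13 lower, and on TMM-rescaled TPM alone 14 higher and 20 lower. No share of all genes is given for a single scaling, so these counts show only the dependence on the scaling. Calls that did not hold without single mock libraries were those of AT3G59130, AT5G21960, BG1, ESE1, MBD11, OBP1, AT5G44050 and TSB1, the last with adjusted p values up to 0.24 (without 12 h replicate 3). Time since spraying and time of day cannot be told apart in these samples.

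The members were set beside the other genes raised at 1 h. At 3 h 95.3% of the members, 97.2% of the 566 genes higher at 24 h and 67.5% of the 40 genes lower at 24 h had risen. The difference was larger at 3 h than at 1 h in 64.1% of members, 82.5% of the 566 and 40.0% of the 40. At 12 h 62.5% of the members had risen, against 97.2% of the 566 and 5.0% of the 40, and 4.69% of the members had fallen, against 0.177% of the 566 and 37.5% of the 40. The effect was lower at 12 h than at 3 h in 89.1% of members, 35.7% of the 566 and 80.0% of the 40. Median differences at 1, 3, 12 and 24 h were 1.35, 1.70, 0.40 and 0.03 for the members, 1.66, 2.70, 2.56 and 2.67 for the 566, and 1.33, 1.28, -0.83 and -1.12 for the 40. The 24 h contrast defined these classes, so the values at 12 h lie beside a time that chose them and are given as a description. In mock leaves at 3 h 48.4% of the members, 44.0% of the 566 and 45.0% of the 40 were lower than at 0 h.

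**Figure D5:**
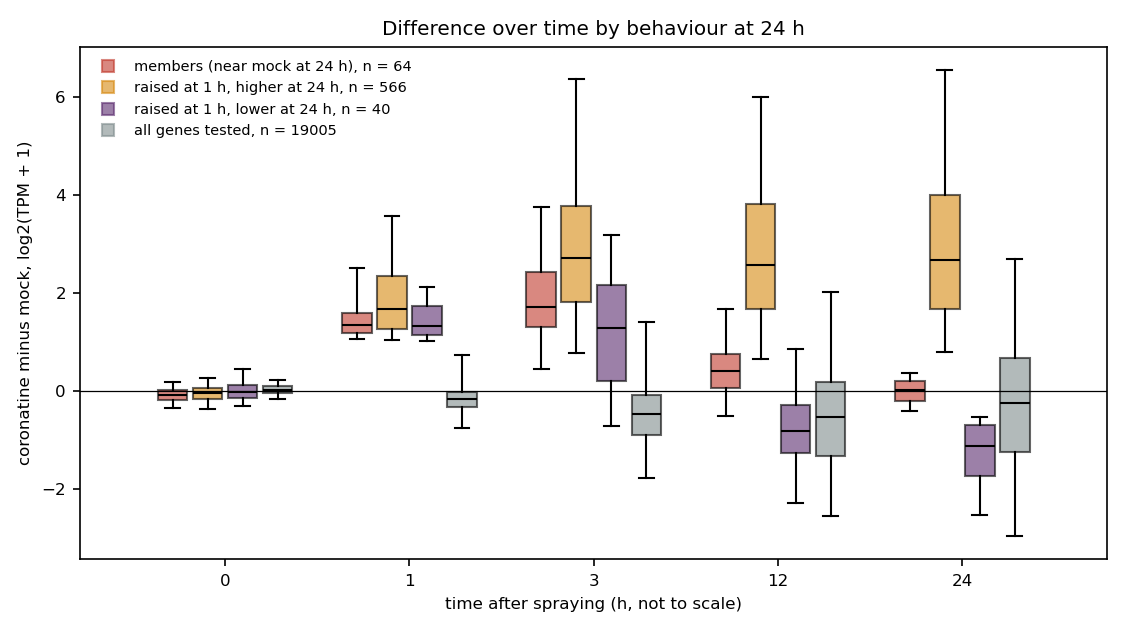
Coronatine minus mock difference in log2(TPM + 1) at 0, 1, 3, 12 and 24 h (x axis, not to scale) for the 64 members, the 566 genes raised at 1 h and higher at 24 h, the 40 raised at 1 h and lower at 24 h, and all 19005 genes tested. Boxes show median and quartiles and whiskers the range of the central 90% of genes, and the members' medians are 1.35, 1.70, 0.40 and 0.03 at 1, 3, 12 and 24 h.

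Gene lists of the jasmonate pathway held none of the members. Of 12 JAZ genes 6 met the 1 h condition, of 13 genes of jasmonate synthesis 7 did, and of 6 genes of jasmonate turnover all 6 did. The turnover list also named JOX1, JOX2, JOX3 and JOX4, which matched no gene name here and were left out. Most JAZ genes are disrupted in jazD, from general knowledge and not from the labels. JAZ levels here may therefore be those of disrupted genes. Of 9 jasmonate regulators 4 met it. Among all genes 2.42% met that condition, and 9.55% of those were members. At 3 h 12 of the 13 synthesis genes, all 6 turnover genes, 9 of the 12 JAZ genes and 6 of the regulators had risen, and 2 regulators had fallen. At 12 h 12 of the 13 synthesis genes, all 6 turnover genes and 11 of the 12 JAZ genes had risen, and none in these 3 lists had fallen. Median differences at 24 h were 2.31 for synthesis, 5.06 for turnover and 2.09 for JAZ genes, beside -0.24 for all genes tested. UGT76E1, which acts on a jasmonate derivative, was a member but belongs to no such list.

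Of 39 rapid stress genes, 13 met the 1 h condition and 1, PUB23, was a member. In that list 16 genes had risen and 17 fallen at 3 h, and 19 had risen and 8 fallen at 12 h. Of 77 ERF and DREB factors 17 met the 1 h condition and 4 were members, namely DDF1, DEAR3, ERF2 and ESE1. Of 85 genes annotated as integrase-type DNA-binding, the annotation's name for AP2/ERF factors, 14 met the condition and 7 were members, a list added after the data had been seen. Of 125 R2R3 MYB genes 15 met it and 2, MYB47 and MYB114, were members. Of 64 UDP-glycosyltransferases with a UGT name 7 met it and 1 was a member. None of the 72 WRKY factors (6 met the condition), 234 cytochromes P450 (17 met it) or 19 clock genes (1 met it) was a member. Of all genes 2.42% met the 1 h condition, and of those that did 9.55% were members. The counts of members in these lists are small and were not tested against that share.

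In gene structure, which the rule did not use, 27 of 64 members (42.2%) had a single exon in their longest RefSeq transcript, against 30.6% of the 566 genes higher at 24 h and 15.6% of all genes tested. The median number of exons was 2 in members, 3 in the 566 and 4 in all genes tested. Median transcript length was 1610.5 bases in members, 1601.5 bases in the 566 and 1720.0 bases in all genes tested. These are descriptions, with no test.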

How the data were processed

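RNA from whole leaves was sequenced from 30 libraries. The authors deposited TPM per gene, which per the submitters' processing notes came from RSEM 1.3.3 on the TAIR10 build; each column sums to between 999999 and 1000001. They also deposited tables of log2 fold changes with p-values for coronatine against mock at each time, with DESeq2 named in the submitters' processing notes. In those deposited tables the mean normalised count of a gene (a signal) and the test score were not used here.

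Genes with at least 1 TPM in at least 3 libraries were tested (19005 of 27655, 68.7%). Two-sided tests used limma 3.58.1 in R 4.3.3 on log2(TPM + 1), with 1 mean per treatment and time, all 30 libraries in 1 fit, a mean-variance trend and Benjamini-Hochberg adjustment over all genes tested in a comparison. The same fit was run on TPM rescaled by TMM factors (trimming 30% of log ratios and 5% of mean log values), and a call needed an adjusted p under 0.05 in the same direction in both. The fit was tested on simulated data for the 3 h comparison over 19005 genes: it recovered 94% of the genes changed by 1 log2 unit and 60% of those changed by 0.5. Of its 182 calls 5 were false. The simulation used a single scaling and had no shift of the median gene. These rates therefore do not describe the joint call on the real libraries.

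Members and gene lists were chosen with earlier results of these data known, roles were assigned after the values had been seen, and the list of AP2/ERF genes by annotation was added after seeing the data. Named genes were the 12 members with a symbol, at least 10 TPM and the largest 1 h difference, up to 8 in each direction at 3 h and 12 h, up to 4 of each list, those beside the rule's thresholds and adjacent members; others are said to fall outside this rule. Sequences and gene structure came from RefSeq on TAIR10.1, near-identical transcripts from blastn 2.17.0. In R and Python, alternatives covered the pseudocount, the filter, the scaling, the trend, each replicate left out, the replicate number as a block and the authors' table.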

Additional observations from a re-analysis of the deposited data

Results flagged for a closer look

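The coronatine effect differed between 12 h and 3 h in these results, by limma's test of the difference itself with adjustment over all genes tested. It was lower at 12 h than at 3 h in 57 of the 64 members, against 30.8% of all genes tested. The 24 h condition of the rule favours such a decline. AT1G73480 went the other way, with an effect larger by 1.03 log2 units at 12 h than at 3 h. In 3 members the called direction turned, lower than mock at 12 h and higher at 3 h. These 3 passed the filter on low values only through coronatine groups where they were high. Each averaged under 1 TPM in both treatments at 12 h. The effect changed by -1.66 log2 units in ESE1, by -1.71 in AT3G59130 and by -2.17 in GA2OX8. The 12 h call of GA2OX8 was lost without coronatine 12 h replicate 1 or 3 or mock 12 h replicate 2, at adjusted p values of 0.061, 0.15 and 0.16.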

How the results depend on the processing

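The set depends on the rule's own settings. It held 104 genes with a pseudocount of 0.1 (55 of them members), 39 with a 24 h limit of 0.25 and 137 with a limit of 1, and 63 to 78 when 1 library was left out. On TMM-rescaled TPM the rule gave 78 genes, of which 51 were members.

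The 3 h count of 61 higher lay between 55 and 62 under the other pseudocounts, filters, scalings, the fit without trend and the authors' deposited table, with 0 lower in all of them. The 12 h count of 3 lower was 1 with a pseudocount of 5, 1 with a filter at 5 TPM and 8 on TPM alone. In mock leaves at 12 h against 0 h, 28 members were higher on TPM alone and 20 lower on TMM-rescaled TPM alone. Shares of all genes on a single scaling are not given beside these counts. With 1 library left out, counts were 61 to 61 higher and 0 lower at 3 h, 37 to 41 higher and 2 to 3 lower at 12 h, and 55 to 57 lower and 1 to 1 higher for the 12 h effect minus the 3 h effect. In mock leaves they were 4 to 6 higher and 29 to 31 lower at 3 h, and 11 to 13 higher and 10 to 13 lower at 12 h. At 0 h the counts were 0 to 0.

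At 12 h, 7 members not called in the joint test had the opposite sign on TMM-rescaled TPM alone, at 0.36 for AT1G06000, 0.42 for AT1G12380, 0.43 for RKP, 0.66 for AT2G30100, 0.45 for OBP1, 0.63 for STY46 and 0.52 for TSB1. In the authors' deposited table these were 0.33, 0.46, 0.41, 0.67, 0.58, 0.62 and 0.48 in the same order. With quantile normalization AT1G12380 was at 0.52, AT2G30100 at 0.34, OBP1 at 0.72 and STY46 at 0.29. In mock leaves at 12 h against 0 h, AT1G74070 was at -0.21, ABCG34 at -0.23 and AT4G24830 at -0.21 on TMM-rescaled TPM alone, and ABCG34 at -0.20 with quantile normalization. Between the 2 limma fits only the scaling changed, and the median gene lies at -0.54 at 12 h on TPM and at 0.02 on TMM-rescaled TPM.

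With the replicate number as a block the counts were 61 higher at 3 h, 40 higher and 3 lower at 12 h, 57 lower for the 12 h effect minus the 3 h effect, and 5 higher and 31 lower at 3 h and 14 higher and 13 lower at 12 h in mock leaves. At 0, 3 and 12 h deviations of same-numbered coronatine and mock libraries correlated between -0.127 and 0.122. No common deviation by number was seen at these times, but a weak correlation cannot exclude a shared batch. The libraries of 1 h and 24 h were not checked this way. Depth is unknown, and a level listed at 0 may be a failed estimate.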
